A study of Drosophila melanogaster with 21 samples.

Results

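The genes described here encode neuropeptides and their receptors in the head of the fruit fly Drosophila melanogaster. A list of 50 genes, 29 for neuropeptide precursors and 21 for receptors, was matched by gene name to the 17559 genes measured in 21 single heads. A gene was tested when it reached 1 RPKM (a read count divided by gene length and library size) in at least 5 heads, which 25 of the 29 neuropeptide genes and all 21 receptor genes did, as did 10501 of all genes.

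Neuropeptides are short signaling molecules that are cut from longer precursors, packed into dense core vesicles and released by neurons and endocrine cells. Most act on receptors coupled to G proteins, and a single peptide made by a small number of cells can reach targets far from a synapse. In the fly they are known for carrying hunger, satiety, water balance, sleep and clock signals, and neuropeptide F, the relative of vertebrate neuropeptide Y, is known for tying the hunger state to the display of food memory.

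The data asked how gene expression in the head changed when starved flies were trained to link an odor with sucrose. The groups were 5 heads of fed flies that were not trained, 5 heads of starved flies that were not trained, 6 heads of starved flies taken 1 hour after training and 5 heads of starved flies taken 4 hours after it. Each head came from a separate female and was a separate library, so a replicate is a fly. Genotype, age, time of day and any food after training are not given in the labels. The trained flies differed from the starved flies in the training, in its odor and sucrose and in the 1 or 4 hours that followed. These cannot be told apart. The trained flies also differed from the fed flies in the preceding starvation.

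Differences are given as log2FC, the difference of mean log2(RPKM + 1) between groups, which understates the change of genes at a few RPKM or less, and p-values weigh it against the spread between flies. Reads on genes numbered 36019296 to 67792568 per head. Most markers fitted the tissue label. The summed level of 5 neuron genes was 434 to 623 RPKM. Of 7 genes that mark the nerve cord and thorax outside the head, 5 stayed below 1 RPKM in every head. Among these, abd-A and Abd-B, which mark the abdominal nerve cord, stayed at or below 0.173 RPKM. Act88F and fln of the same list were detected at low levels, at 0.306 to 3.40 RPKM and 0.618 to 3.40 RPKM. The summed level of 7 head fat body genes was 29106 to 64179 RPKM in fed heads and 143 to 21293 RPKM in all starved and trained heads, with no overlap. In fed heads most of this sum came from the yolk protein genes Yp1, Yp3 and Yp2, with means of 22021, 13306 and 10740 RPKM. Starved replicate 3 and 1-hour replicate 3 stood apart within this tissue, with 14.3 and 6.57 RPKM of the lipoprotein gene apolpp against 26.2 to 1373 RPKM in the other heads. Because a whole head was measured, fewer cells of a type and less RNA per cell cannot be told apart.

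The neuropeptide genes spanned a wide range of levels. RPKM is already divided by gene length, so levels can be set side by side between genes. Nplp2 and Nplp3, whose products were named as neuropeptide-like precursors, were highest with medians over all heads of 1887 and 587 RPKM. They were followed by Ms, the precursor of the muscle-relaxing peptide myosuppressin, at 90.1 RPKM. Next came Dsk, Tk, Capa, sNPF and AstC with medians of 69.0, 62.3, 48.9, 45.4 and 44.7 RPKM. Dsk encodes the cholecystokinin-like drosulfakinins, a satiety signal, and Tk encodes tachykinins. sNPF encodes short neuropeptide F, which promotes feeding. At the other end of the tested genes stood Lk, Nplp4 and CCAP, at 5.48, 3.67 and 0.936 RPKM. Lk encodes leucokinin, a diuretic and meal-size signal, and CCAP a cardioactive peptide known from ecdysis. Of the 626 exonic bases of Lk, 582 are shared with the antisense gene asRNA:CR44843, and the libraries kept no strand, so its reads cannot be given to Lk alone. CCAP passed the filter in 8 of 21 heads and shares 78 exonic bases with CG6972.

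The 4 precursor genes below the filter were amn, CNMa, RYa and Akh, with medians of 0.691, 0.356, 0.352 and 0.225 RPKM. The gene amn, or amnesiac, is known from a memory mutant, and CNMa and RYa encode the CNMamide and RYamide peptides. Akh encodes adipokinetic hormone, which works like glucagon and comes from the corpora cardiaca. Those glands lie at the gut behind the brain. Akh had 2 to 13 reads and RYa 2 to 16 reads per head, so no difference between groups could be resolved for them. In a fit with no filter, 0 of the 24 comparisons of these genes passed the adjusted limma threshold, and the lowest adjusted p was 0.225.

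The receptor genes lay lower and closer together. AkhR, the receptor of adipokinetic hormone, AstC-R1, a receptor of allatostatin C, and Pdfr, the receptor of the clock peptide PDF, had the highest medians, at 17.4, 17.3 and 16.6 RPKM. These neighbours in the order overlapped across the heads. CCHa2-R, Lgr3 and AstA-R2 were lowest, at 1.46, 1.32 and 0.948 RPKM. They encode the receptors of CCHamide-2, of the insulin-like peptide Dilp8 and of allatostatin A. Lgr3 shares 1036 exonic bases with 2 other genes, and AstA-R2 passed the filter in 5 heads. The 21 receptor genes had a median level of 4.15 RPKM, against 27.1 RPKM for the 25 tested neuropeptide genes and 11.3 RPKM for all tested genes.

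**Figure D1:**
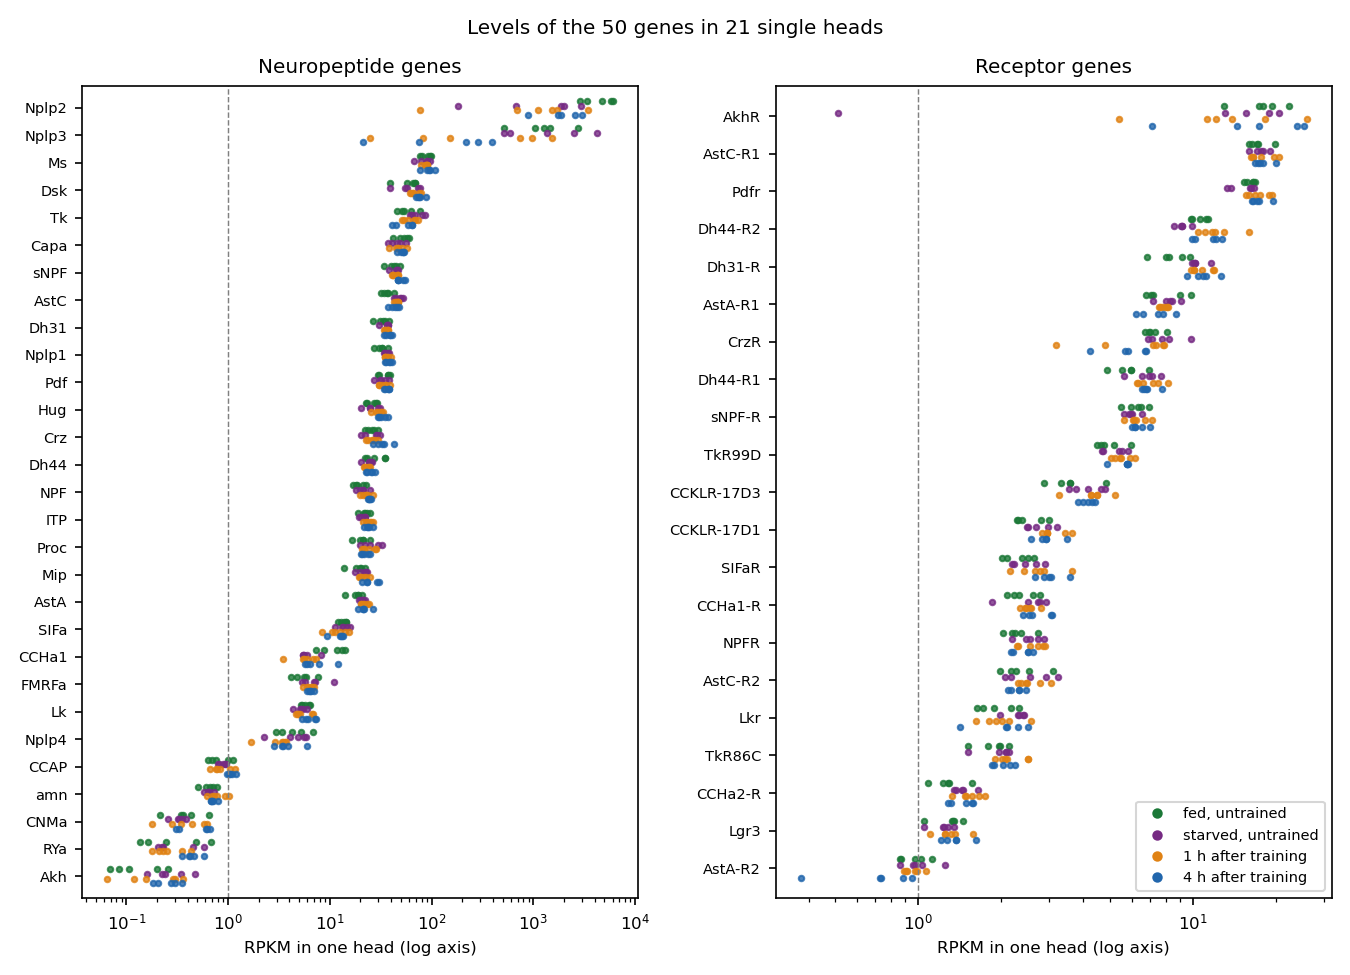
Each point is the RPKM of one gene in one head on a log axis, with neuropeptide genes at the left and receptor genes at the right, ordered by their median and colored by group; the dashed line marks 1 RPKM. Most genes stay within a narrow band across the 21 heads, while Nplp2, Nplp3 and AkhR spread widely, from 76.5 to 6083, 21.05 to 4260 and 0.513 to 26.0 RPKM.

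Peptides were more abundant than their receptors at the RNA level. In 18 pairs of a ligand with a receptor known for it, covering 14 ligands, the ligand was above the receptor in all 21 heads for 17 pairs. The median ratio ran from 2.13 for Pdf over Pdfr to 23.8 for Dsk over its receptor CCKLR-17D1. NPF was 8.41 times its receptor NPFR by the median of the ratios, and sNPF was 7.15 times sNPF-R. The exception was Akh, which lay below AkhR in all 21 heads. The RNA of the hormone was near the limit of detection and that of its receptor was the highest of the receptors.

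**Figure D2:**
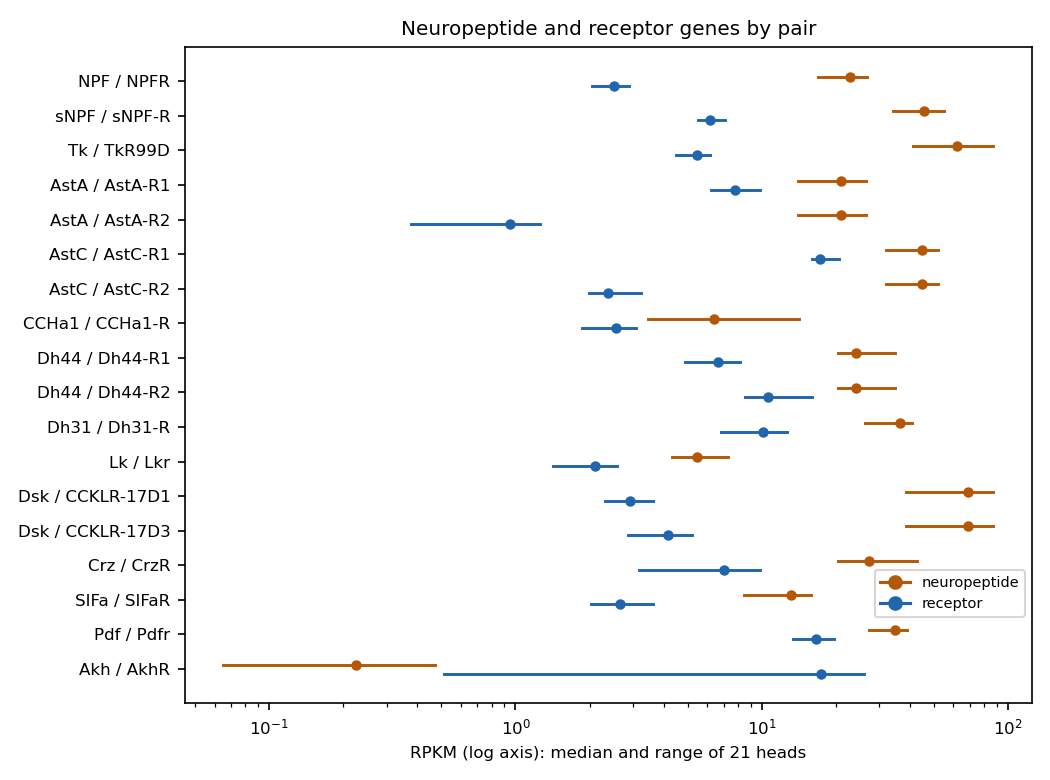
For each of 18 pairs the point gives the median RPKM of 21 heads and the bar the range, on a log axis, for the neuropeptide gene and the receptor gene. The neuropeptide lies to the right in 17 pairs and to the left for Akh and AkhR, at 0.225 and 17.4 RPKM.

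Among heads of the same group these genes varied less than might be read from Nplp2 and Nplp3 alone. The SD of log2(RPKM + 1) within groups had a median of 0.12 over the receptor genes, 0.17 over the tested neuropeptide genes and 0.17 over all tested genes. Only AkhR and CrzR among the 21 receptors exceeded that of the median gene, with 0.94 and 0.28. Nplp3 with 1.68 and Nplp2 with 1.353 had the largest SDs of the neuropeptides, above 99.2% and 98.3% of all tested genes. Nplp4 and CCHa1 followed with 0.36 and 0.33. Because a pseudocount of 1 was added before the log, SDs of the lowest genes are understated.

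In starved against fed heads, AstC was the only member past the threshold. Of the 25 neuropeptide genes 1 rose and 0 fell by limma at an adjusted p below 0.05, and of the 21 receptor genes 0 were called, where 1.51% of all tested genes were called, 0.562% higher and 0.952% lower. At an unadjusted p below 0.05 the counts were 8 neuropeptide and 2 receptor genes, against 19.4% of all genes. With voom weights on recovered reads 1 neuropeptide gene and 0 receptor genes were called, against 0.752% of all genes. The median log2FC was 0.02 over the neuropeptide genes, 0.06 over the receptor genes and -0.0015 over all genes.

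AstC encodes allatostatin C, a peptide named for blocking juvenile hormone synthesis in a moth. It lies on chromosome 2L of the dm6 genome from 11076165 to 11081399. It was at 37.0, 31.9, 36.1, 43.2 and 33.9 RPKM in the 5 fed heads and at 44.7, 42.3, 50.4, 49.2 and 52.1 RPKM in the 5 starved heads. Every starved head but replicate 2 was above every fed head. The means were 36.4 ± 4.26 and 47.7 ± 4.09 RPKM (SD, n = 5 each), for a log2FC of 0.38 ± 0.08 (SE, adjusted p = 0.0268 by limma). Its receptor genes AstC-R1 and AstC-R2 had log2FC values of 0.02 and 0.07 (adjusted p = 0.891 and 0.682, limma), with 95% intervals of -0.13 to 0.17 and -0.12 to 0.26.

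The call for AstC did not hold in every fit without 1 head. It was lost without fed replicate 2, 3 or 6 (adjusted p = 0.0876, 0.0766 and 0.0739, limma) and without starved replicate 3 or 5 (adjusted p = 0.0617 and 0.0709, limma). In these fits the shares of all genes called were, in the same order, 0.324%, 0.267%, 0.305%, 0.581% and 0.419%, against 1.51% with all heads. The log2FC of AstC stayed between 0.34 and 0.44 over all 10 fits without 1 head. With both heads lowest in apolpp left out it was 0.36 (adjusted p = 0.0577, limma). The summed neuron markers were 434 to 596 RPKM in fed heads and 517 to 623 RPKM in starved heads, and 0 of these 5 genes were called. With every head rescaled to the same neuron marker sum the log2FC of AstC was 0.27 (adjusted p = 0.0893, limma), on a scale where the median of all genes was -0.11. The fat body marker sum, mostly yolk protein genes in fed heads, had a median of 55956 RPKM in fed and 2587 RPKM in starved heads. Of its 6 tested genes 4 were called lower, Yp1, Yp2, Yp3 and takeout. The gene apolpp had means of 740 RPKM in fed and 165 RPKM in starved heads and was not called. The part of the fat body in the AstC difference was not tested.

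CCHa1 and Dh31-R had the next lowest p-values in starved heads without passing the threshold. CCHa1 encodes CCHamide-1, a peptide of brain neurons and gut endocrine cells, on chromosome 3R from 14092504 to 14096835. It was at 13.3, 7.31, 8.70, 11.7 and 14.2 RPKM in fed heads and at 5.92, 5.51, 8.16, 5.47 and 5.62 RPKM in starved heads. Only starved replicate 3 reached into the fed range. The difference was a log2FC of -0.73 ± 0.20 (SE, adjusted p = 0.0657 by limma). With both heads lowest in apolpp left out it was -0.82 (adjusted p = 0.0430, limma), the only 1 of 9 other settings that passed. Of the 10 fits without 1 head 0 passed (adjusted p up to 0.160, limma). Its receptor gene CCHa1-R had a log2FC of 0.06 (adjusted p = 0.714, limma).

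Dh31-R had the lowest p of the receptor genes in the same comparison. It encodes the receptor of diuretic hormone 31, a calcitonin-like peptide that acts on fluid secretion and in the clock network, on chromosome 2R from 13267798 to 13295927. It was at 9.76, 6.84, 8.17, 9.10 and 7.98 RPKM in fed heads and at 10.1, 9.89, 11.6, 10.2 and 10.2 RPKM in starved heads. All starved heads lay above all fed heads, which held for 1 of the 21 receptor genes, 0 of the 25 neuropeptide genes and 1.90% of all tested genes. Dh31-R thus had a log2FC of 0.29 ± 0.08 (SE, adjusted p = 0.0752 by limma). It passed the threshold without fed replicate 1 (0.34, adjusted p = 0.0246, limma), where 7.47% of all genes were called, against 1.51% with all heads. In the other 9 of 10 fits without 1 head it did not pass (adjusted p up to 0.198, limma).

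At 1 hour after training, Dh44-R2 was the only member that differed from starved heads. Of the receptor genes 1 rose and 0 fell, and of the neuropeptide genes 0 were called, against 0.552% of all tested genes (0.448% higher and 0.105% lower). At an unadjusted p below 0.05 there were 2 receptor and 2 neuropeptide genes, against 13.6% of all genes. Voom called 0 in both classes, against 0.476% of all genes. The median log2FC was 0.0017 over the neuropeptide genes and 0.04 over the receptor genes, with -0.0046 over all genes.

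Dh44-R2 encodes one of the receptors of diuretic hormone 44, a relative of vertebrate corticotropin-releasing factor. Neurons that make this hormone are known for sensing nutritive sugar. The gene lies on chromosome 2R from 12474424 to 12487986. It was at 9.05, 8.54, 9.11, 9.95 and 9.17 RPKM in the 5 starved heads and at 10.4, 11.9 and 16.1 RPKM as the lowest, median and highest of the 6 heads at 1 hour. All 1-hour heads lay above all starved heads, which 1 receptor gene, 0 neuropeptide genes and 1.10% of all genes showed. The means were 9.17 ± 0.51 and 12.4 ± 2.00 RPKM (SD, n = 5 and 6), for a log2FC of 0.38 ± 0.09 (SE, adjusted p = 0.0499 by limma). Fed heads were at 9.83 to 11.4 RPKM and overlapped both groups, and the log2FC of the 1-hour heads against them was 0.20 (adjusted p = 0.143, limma).

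This call was at the edge of the threshold. Leaving out any of the 5 starved heads, or 1-hour replicate 1, 2, 5 or 6, lost it, 9 of 11 such fits, with adjusted p up to 0.137 and log2FC values from 0.31 to 0.43 over the 11 fits. Of its 3278 exonic bases 1087 are shared with CG34234 and fdl. Those genes had log2FC values of 0.31 and 0.18 in the same comparison (adjusted p = 0.132 and 0.147, limma), so part of the reads could not be assigned to Dh44-R2 alone. The hormone gene Dh44 itself was at 24.1 ± 2.20 RPKM in starved heads (SD, n = 5) and 23.1 ± 1.34 RPKM at 1 hour (SD, n = 6), a log2FC of -0.05 (adjusted p = 0.857, limma). The second receptor gene Dh44-R1 had a 95% interval for its log2FC within 1 of 0, as did 20 of the 21 receptor genes and 23 of the 25 neuropeptide genes.

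**Figure D3:**
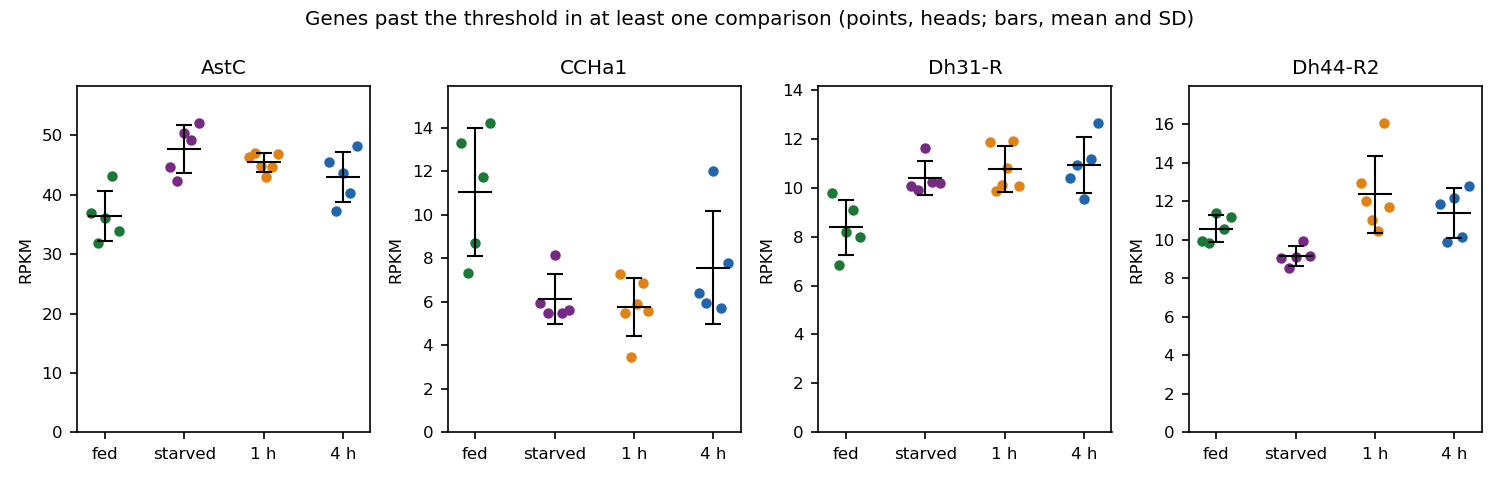
RPKM of AstC, CCHa1, Dh31-R and Dh44-R2 in each head (points) by group (fed, starved, and 1 and 4 hours after training), with the mean and SD of 5 or 6 heads as bars on axes that start at 0. AstC and Dh31-R are lowest in fed heads, CCHa1 is highest in fed heads, and Dh44-R2 is lowest in starved heads, at 9.17 ± 0.51 RPKM.

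At 4 hours after training no member differed from starved heads past the threshold. Limma called 0 neuropeptide and 0 receptor genes, where it called 6.37% of all tested genes (3.62% higher and 2.75% lower). Voom also called 0 in both classes, against 6.28% of all genes. At an unadjusted p below 0.05 there were 8 neuropeptide and 5 receptor genes, against 22.2% of all genes. The median log2FC was 0.16 over the neuropeptide genes and 0.04 over the receptor genes, with 0.0016 over all genes. The heads of these groups did not overlap for 2 neuropeptide genes, Nplp3 and CCAP, and 1 receptor gene, CrzR, against 9.63% of all genes. CCAP reached 1 RPKM in 8 heads, among them 4-hour heads at 1.04, 1.08, 1.03 and 1.20 RPKM, and in no starved head. Without the 4-hour group CCAP would not have passed the filter of 5 heads, so its separation is not independent of the filter. CCAP also shares exonic bases with CG6972, which rose in the same comparison by 0.49 on the log2 scale (adjusted p = 0.0320, limma).

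Nplp3 had the lowest p of the neuropeptide genes in this comparison and the largest fold. It lies on chromosome 3L from 16318024 to 16318690. Starved heads held 587, 2535, 4260, 1365 and 517 RPKM and 4-hour heads 220, 285, 74.6, 390 and 21.05 RPKM. All 4-hour heads were below all starved heads. Nplp3 thus had a log2FC of -3.35 ± 1.01 (SE, adjusted p = 0.0548 by limma), with a 95% interval from -5.47 to -1.23. It passed the threshold without starved replicate 1 (-3.65, adjusted p = 0.0472, limma) or 4-hour replicate 5 (-3.74, adjusted p = 0.0475, limma). Nplp3 did not pass in the other 8 of 10 fits without 1 head, and 0 of 9 other settings passed.

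At 1 hour Nplp3 was spread out. The lowest, median and highest of the 6 heads were 24.9, 449 and 1524 RPKM, for a log2FC against starved heads of -2.34 ± 0.97 (SE, adjusted p = 0.303 by limma). Leaving out both heads lowest in apolpp moved it to -1.25 (adjusted p = 0.755, limma). Among the receptors, Dh44-R2 again had the lowest p at 4 hours, at 11.9, 9.90, 12.2, 10.2 and 12.8 RPKM. Its log2FC against starved heads was 0.28 ± 0.09 (SE, adjusted p = 0.0687 by limma), and 4-hour replicate 3 overlapped the starved heads.

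Crz and CrzR, the genes of the stress peptide corazonin and its receptor, are given here for different comparisons. Crz had the lowest p of the neuropeptides between 4 hours and 1 hour. It was at 42.6, 29.6, 26.3, 32.4 and 34.1 RPKM at 4 hours and at 22.8, 26.2 and 30.1 RPKM as the lowest, median and highest at 1 hour, with overlapping heads. The difference was a log2FC of 0.32 ± 0.12 (SE, adjusted p = 0.282 by limma). CrzR had a log2FC of -0.39 at 4 hours against starved heads (adjusted p = 0.182, limma), with 5.83, 6.70, 5.64, 6.74 and 4.24 RPKM at 4 hours, each below the lowest starved head at 6.86 RPKM. Neither gene passed the threshold in any of the 6 comparisons.

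**Figure D4:**
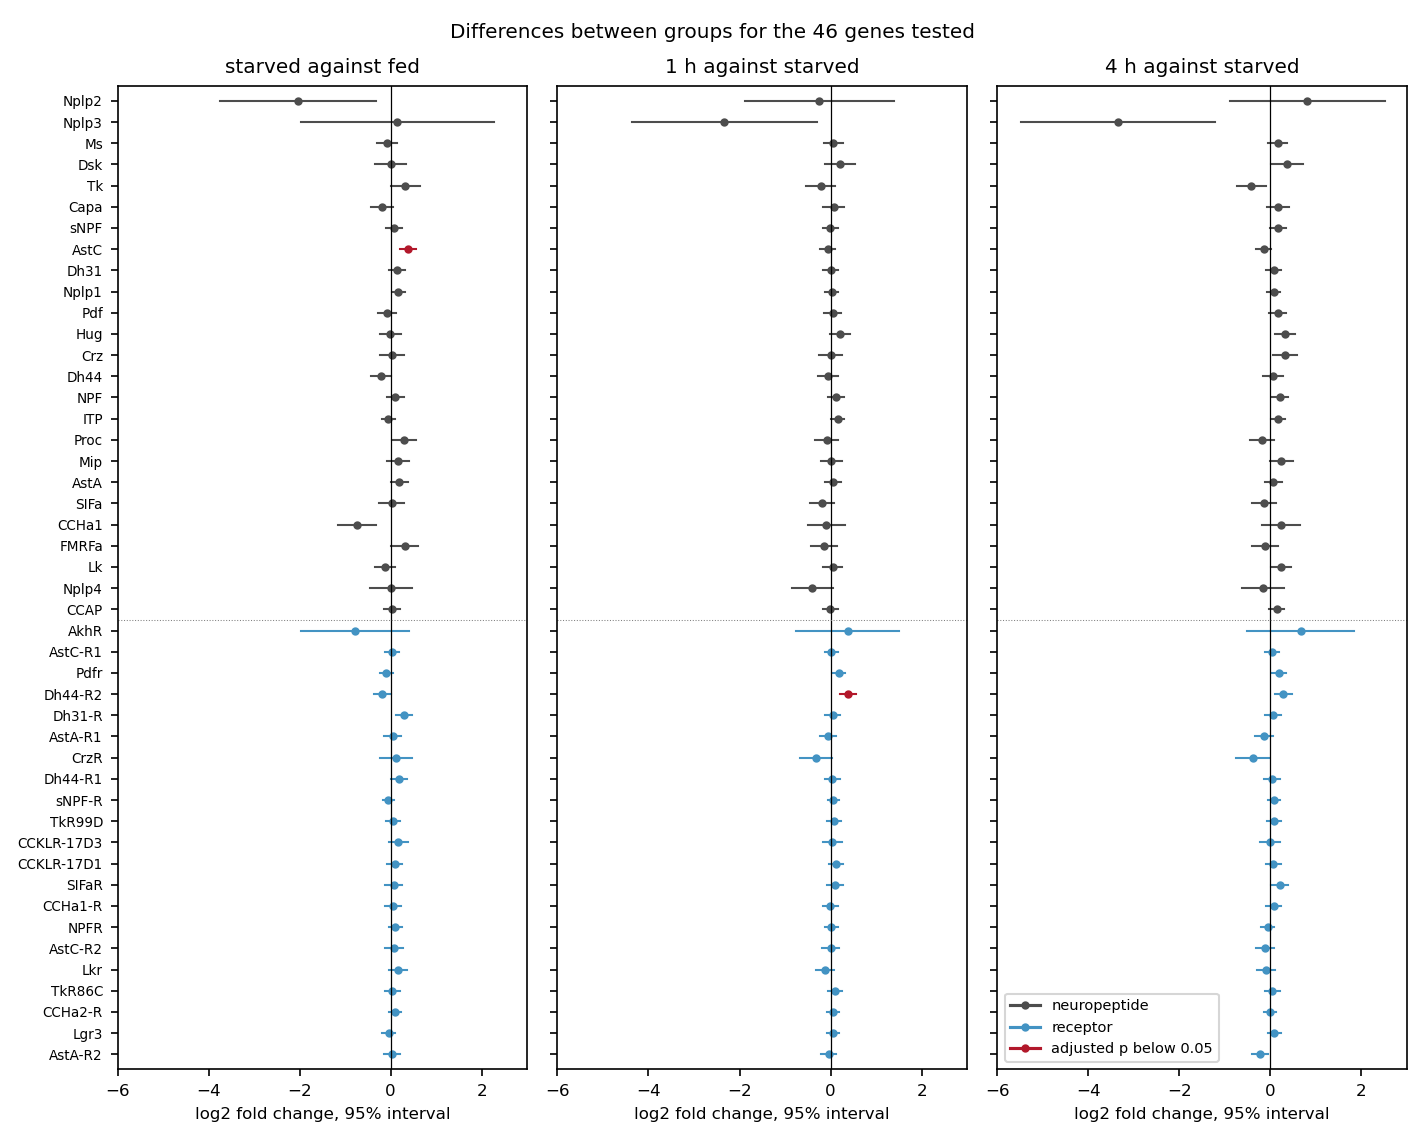
Log2FC values (points) and 95% intervals (lines) of the 46 tested genes for starved against fed heads and for 1 and 4 hours after training against starved heads; genes are in order of level, neuropeptides above and receptors below the dotted line. AstC at 0.38 in the left panel and Dh44-R2 at 0.38 in the middle panel pass the threshold, and the intervals of Nplp2, Nplp3 and AkhR are the broadest.

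Against fed heads, the trained groups had 4 calls, for AstC, CCHa1 and Dh31-R at 1 hour and for Dh31-R at 4 hours. At 1 hour 2 neuropeptide genes were called, 1 higher and 1 lower, and 1 receptor gene was higher, against 8.98% of all tested genes (5.13% higher and 3.85% lower). At 4 hours 0 neuropeptide genes were called and 1 receptor gene was higher, against 3.40% of all genes (1.70% in each direction). At an unadjusted p below 0.05 there were 8 neuropeptide and 6 receptor genes at 1 hour (28.2% of all genes) and 12 and 4 at 4 hours (20.1% of all genes). Voom called 2 neuropeptide and 1 receptor gene at 1 hour (8.25% of all genes) and 1 and 1 at 4 hours (3.16% of all genes). The fed heads are the control of all 3 comparisons that use them, so these calls are not independent of those for starved heads, and the trained flies had also been starved.

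Dh31-R was above the fed level at both times. It was at 9.85, 10.4 and 11.9 RPKM as the lowest, median and highest of the 6 heads at 1 hour, all above the fed heads, which 1 receptor gene, 0 neuropeptide genes and 2.97% of all genes showed. At 4 hours it was at 10.4, 10.9, 9.52, 11.2 and 12.6 RPKM, with replicate 4 below fed replicate 1. The log2FC values were 0.33 ± 0.08 at 1 hour (SE, adjusted p = 0.0179 by limma) and 0.35 ± 0.08 at 4 hours (SE, adjusted p = 0.0291 by limma). The peptide gene Dh31 was at 32.6 ± 4.26 RPKM in fed heads (SD, n = 5) and 37.7 ± 2.76 RPKM at 4 hours (SD, n = 5), a log2FC of 0.21 (adjusted p = 0.155, limma).

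Both Dh31-R calls kept their side of the threshold when heads were rescaled to the same neuron marker sum (0.27 and 0.28, limma adjusted p = 0.0287 and 0.0416) and with both heads lowest in apolpp left out. The 1-hour call was lost without fed replicate 2 or 6 (adjusted p = 0.0520 and 0.0529, limma). The 4-hour call was lost without fed replicate 2, 3 or 6 or 4-hour replicate 1, 3, 5 or 6, with adjusted p from 0.0514 to 0.0898. Against starved heads Dh31-R had log2FC values of 0.04 at 1 hour and 0.06 at 4 hours (adjusted p = 0.847 and 0.714, limma), with 95% intervals of -0.12 to 0.21 and -0.11 to 0.24.

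CCHa1 was lower at 1 hour than in fed heads. The lowest, median and highest of the 6 heads were 3.46, 5.74 and 7.27 RPKM, all below the fed heads, which 1 neuropeptide gene, 0 receptor genes and 1.75% of all genes showed. For CCHa1 the log2FC was -0.82 ± 0.19 (SE, adjusted p = 0.0168 by limma), and it was lost without fed replicate 6 (-0.73, adjusted p = 0.0541, limma). At 4 hours it was at 6.395, 5.94, 12.0, 5.73 and 7.76 RPKM, with replicates 4 and 6 in the fed range, a log2FC of -0.50 (adjusted p = 0.174, limma). The 1-hour replicate 3, the lowest in apolpp, was also the lowest in CCHa1. The summed level of 5 gut markers was 8.88 to 81.3 RPKM in fed heads and 14.1 to 279 RPKM in 1-hour heads, and the part of the gut in the difference was not tested.

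AstC was above the fed level at 1 hour, at 43.0, 45.7 and 47.0 RPKM as the lowest, median and highest of the 6 heads. The lowest was below fed replicate 5. The difference was a log2FC of 0.32 ± 0.08 (SE, adjusted p = 0.0191 by limma), and it was lost without fed replicate 2 or 6 (adjusted p = 0.0574 and 0.0561, limma) and with the same neuron marker sum (0.25, adjusted p = 0.0645, limma), where the median of all genes was -0.08. At 4 hours AstC was at 45.5, 37.3, 43.8, 40.4 and 48.2 RPKM, a log2FC of 0.24 (adjusted p = 0.113, limma). This passed the threshold without fed replicate 5 (0.30, adjusted p = 0.0384, limma), but not in the other 9 of 10 fits without 1 head (adjusted p up to 0.261, limma).

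NPF, the gene of the hunger signal neuropeptide F, had the lowest p of the neuropeptides at 4 hours against fed heads. It was at 17.99, 16.9, 22.8, 18.6 and 21.3 RPKM in fed heads and at 23.6, 24.0, 24.3, 25.4 and 24.6 RPKM at 4 hours. All 4-hour heads lay above all fed heads, as did those of Dsk and Hug. Nplp3 lay below, so 4 neuropeptide genes did not overlap, and SIFaR was the 1 receptor gene, against 8.92% of all genes. The difference was a log2FC of 0.32 ± 0.09 for NPF (SE, adjusted p = 0.0549 by limma). Of the 10 fits without 1 head 0 passed the threshold (adjusted p from 0.0507 to 0.144, limma), and of 9 other settings 4 did. It passed the threshold with voom weights (adjusted p = 0.0494, limma), with every head at the same 75th percentile (adjusted p = 0.0432, limma) and without the 2 heads lowest in apolpp (adjusted p = 0.0489, limma), but not with the same neuron marker sum, where it was 0.23 (adjusted p = 0.299, limma) and the median of all genes was -0.08. Its receptor gene NPFR had a log2FC of 0.04 (adjusted p = 0.777, limma), with a 95% interval of -0.11 to 0.18.

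Between 4 hours and 1 hour limma called 0 neuropeptide and 0 receptor genes, against 0.0857% of all tested genes (0.0286% higher and 0.0571% lower). Voom called 0 in both classes, against 0.152% of all genes. At an unadjusted p below 0.05 there were 2 neuropeptide genes and 1 receptor gene, against 12.8% of all genes. No member's heads were separated, against 3.27% of all genes. AstA-R2 had the lowest p of the receptors, with a log2FC of -0.19 ± 0.08 (SE, adjusted p = 0.335 by limma). It was at 0.948, 0.731, 0.725, 0.879 and 0.375 RPKM at 4 hours and at 0.887, 0.942 and 1.07 RPKM as the lowest, median and highest at 1 hour. AstA-R2 reached 1 RPKM in 5 heads, among them 1-hour replicate 5, and in no 4-hour head. Without the 1-hour group it would not have passed the filter, so this difference is not independent of the filter. At this level, with 55 to 153 reads per head, the pseudocount of 1 understates the change. Its ligand gene AstA, a satiety signal, had medians of 21.3 RPKM at 1 hour and 21.1 RPKM at 4 hours.

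The remaining members were described by role, and those given with values here were chosen after the values were seen. No tested gene other than AstC, CCHa1, Dh31-R and Dh44-R2 passed the threshold in any comparison. Among the peptides that curb feeding, Hug, which encodes the hugin peptides, was at 26.0 ± 2.90 RPKM in fed, 26.1 ± 4.39 RPKM in starved and 32.7 ± 3.15 RPKM in 4-hour heads (SD, n = 5 each). Its log2FC at 4 hours against starved heads was 0.33 (adjusted p = 0.0753, limma), and it passed the threshold without starved replicate 1 (0.39, adjusted p = 0.0314, limma). In the other 9 of 10 fits without 1 head Hug did not pass (adjusted p up to 0.219, limma), and 0 of 9 other settings did. Dsk was at 59.9 ± 12.8, 60.4 ± 15.1 and 76.3 ± 6.58 RPKM in the same groups, a log2FC of 0.37 (adjusted p = 0.195, limma). Its receptor genes CCKLR-17D1 and CCKLR-17D3 had log2FC values of 0.06 and -0.01 there (adjusted p = 0.689 and 0.978, limma). Thus the means of both peptides were nearly equal in fed and starved heads and higher at 4 hours, though neither difference passed the test. At 1 hour Hug was at 25.4 to 33.6 RPKM and Dsk at 61.3 to 79.4 RPKM. These ranges overlapped both the starved and the 4-hour heads.

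Tk stood the other way, with means of 58.0 ± 12.4 RPKM in fed, 72.3 ± 10.9 RPKM in starved and 54.2 ± 10.8 RPKM in 4-hour heads (SD, n = 5 each). Its log2FC at 4 hours against starved heads was -0.42 (adjusted p = 0.116, limma), with a 95% interval of -0.74 to -0.10. The receptor genes TkR99D and TkR86C had log2FC values of 0.08 and 0.04 in that comparison (adjusted p = 0.536 and 0.809, limma). Mip, the gene of the myoinhibitory peptides, was at 18.9 ± 3.11 RPKM in fed and 25.3 ± 4.22 RPKM in 4-hour heads (SD, n = 5 each), a log2FC of 0.41 (adjusted p = 0.0659, limma). The clock peptide gene Pdf moved little, with means of 32.7 to 36.4 RPKM over the 4 groups and a log2FC at 4 hours against starved heads of 0.16 (adjusted p = 0.344, limma). For sNPF-R, the receptor gene of short neuropeptide F, the 95% intervals of the log2FC were -0.18 to 0.08 for starvation, -0.06 to 0.18 at 1 hour and -0.05 to 0.21 at 4 hours against starved heads.

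Nplp2, Nplp3 and AkhR had the largest SDs within groups of the tested members, and were chosen for a fuller account after their values were seen. Nplp2 was at 2880, 6083, 4692, 3341 and 5801 RPKM in fed heads. In starved heads it was at 1881, 2928, 183, 1998 and 681 RPKM, and starved replicate 2 overlapped the fed heads. Its log2FC was -2.03 ± 0.82 in starved heads (SE, adjusted p = 0.191 by limma) and -2.28 ± 0.78 at 1 hour (SE, adjusted p = 0.0704 by limma), both against fed heads. Without the 2 heads lowest in apolpp these were -1.40 and -1.57 (adjusted p = 0.145 and 0.0431, limma). Without 1-hour replicate 2 the second was -2.67 (adjusted p = 0.0317, limma). It did not pass in the other 10 of 11 fits without 1 head (adjusted p up to 0.146, limma).

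AkhR encodes the receptor through which adipokinetic hormone releases energy stores from the fat body. It was at 18.9, 20.6, 0.513, 13.1 and 15.6 RPKM in starved heads, and 12.999 to 22.4 RPKM in fed heads. Starved replicate 3 stood apart from all other heads, the next lowest of which was 1-hour replicate 3 at 5.37 RPKM. These were also the heads lowest in Nplp2, at 183 and 76.5 RPKM, and in apolpp, while Nplp3 was 4260 RPKM in the first and 24.9 RPKM in the second. Starved replicate 3 was therefore the highest of all heads in Nplp3 and the lowest in AkhR. The part of the fat body in these values was not tested. Their summed neuron markers, at 623 and 544 RPKM, were not low.

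**Figure D5:**
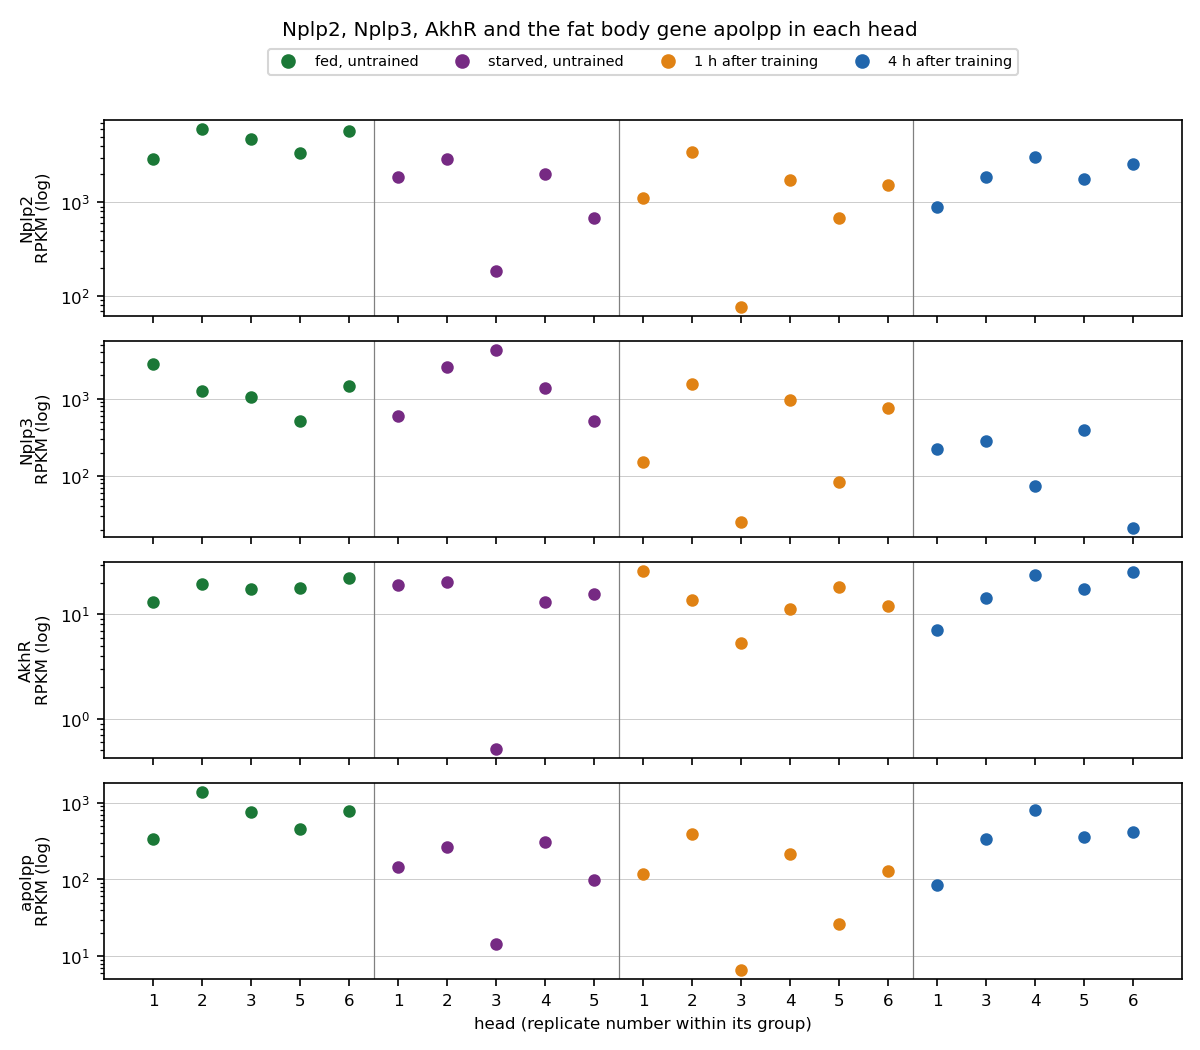
RPKM of Nplp2, Nplp3, AkhR and the fat body gene apolpp in each of the 21 heads on log axes, by group, with the replicate number below. Starved replicate 3 and 1-hour replicate 3 are lowest in Nplp2 (183 and 76.5 RPKM), AkhR (0.513 and 5.37 RPKM) and apolpp (14.3 and 6.57 RPKM), but not together in Nplp3.

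Genes that process, break down or receive peptides were looked at beside the members. Of 10 tested genes for peptide processing and dense core vesicles, 2 were called at 4 hours against starved heads, where 6.37% of all tested genes were. QC, a glutaminyl cyclase that caps peptide ends, rose from 19.9 ± 2.43 to 29.0 ± 1.42 RPKM (SD, n = 5 each), for a log2FC of 0.53 ± 0.10 (SE, adjusted p = 0.00646 by limma), and svr, a carboxypeptidase that trims precursors, fell by 0.24 (adjusted p = 0.0255, limma). The QC call held in each fit that left out 1 head, while that of svr was lost without starved replicate 2, 4 or 5 or 4-hour replicate 3, 4 or 6 (adjusted p from 0.0542 to 0.0802, limma). Against fed heads 1 of the 10 genes was called at 1 hour and 2 at 4 hours, beside 8.98% and 3.40% of all genes. Pal2, an enzyme of peptide amidation, rose by 0.27 at 1 hour and 0.41 at 4 hours (adjusted p = 0.0313 and 0.0105, limma), and the first of these calls was lost without fed replicate 2 or 6 or 1-hour replicate 4 or 5 (adjusted p from 0.0526 to 0.0854, limma). At 4 hours 7B2, the helper of the precursor convertase amon, rose by 0.38 (adjusted p = 0.0338, limma), a call lost in 9 of the 10 fits without 1 head, all but that without fed replicate 1 (adjusted p up to 0.0889, limma). These values are log2FC values.

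Of 6 tested peptide-degrading enzymes, 1 was called at 1 hour against fed heads, beside 8.98% of all genes. Nep4 rose at 1 hour against fed heads, from 27.2 ± 6.27 RPKM (SD, n = 5) to 51.1 ± 14.9 RPKM (SD, n = 6), a log2FC of 0.86 (adjusted p = 0.00991, limma). Of 14 tested receptors outside the member list, 1 was called at 4 hours against starved heads, beside 6.37% of all genes. MsR1, a receptor of myosuppressin, fell by 0.51 on the log2 scale (adjusted p = 0.0144, limma), a call lost without 4-hour replicate 6 (adjusted p = 0.0514, limma). Ms, its ligand, had medians of 89.2 RPKM in starved heads and 94.6 RPKM at 4 hours. Of 8 tested peptide genes outside the member list, limma called 0 in each comparison, with 0 to 4 at an unadjusted p below 0.05, where 0.0857% to 8.98% of all genes were called and 12.8% to 28.2% had an unadjusted p below 0.05.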

How the data were processed

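RNA from 21 single female heads was sequenced as non-stranded libraries of polyadenylated RNA. The authors deposited 1 table of RPKM values with a column for each head. Per the submitters' processing notes the tools were CASAVA 1.8.2, TopHat2 2.0.13 and edgeR 3.18.1 with the dm6 genome, while another passage of the methods names earlier tools and an earlier build. All columns were mapped to heads and 0 were left unused. Whole reads were recovered for 100.0% of the 17212 genes above 0, within 0.01 of a whole read, and the lengths behind the values equal the exon sums of the BDGP6.54 annotation for 16496 genes. The recovered reads on genes ran from 36019296 to 67792568 (median 48817711) in a head.

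The deposited RPKM values were tested as log2(RPKM + 1) with limma 3.58.1 (R 4.3.3, moderated with a trend) in 1 fit over the 21 heads, for the 10501 genes at 1 RPKM or more in at least 5 heads. P-values were adjusted over all of these genes by the Benjamini-Hochberg method with a threshold of 0.05, and all 6 pairs of groups were compared. Members and gene lists were chosen with earlier results of these data known. Full values were given for members past the threshold and for the neuropeptide and receptor with the lowest p in each comparison. Levels were given for the 3 most and 3 least abundant of each class, for members below the filter and for known partners. From other lists genes past the threshold were named.

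Alternatives were a pseudocount of 0.1, no filter, 2 other scalings, fits of 2 groups, a replicate block and leaving out each head. Voom weights on recovered reads, scaling to the neuron markers and leaving out both heads lowest in apolpp were added after seeing the data. No head was a duplicate of another in its group: chi-square values per gene for pairs of heads in a group were at least 25.7. Heads of different groups were not compared in this way. Tested on simulated data for 4 hours against starved heads over 10501 genes, the fit recovered 42 of 67 genes changed 1.5-fold, 52 of 67 changed 2-fold and 65 of 66 changed 4-fold, with 3 calls among unchanged genes.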

Additional observations from a re-analysis of the deposited data

Results flagged for a closer look

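In 12 of 184 groups of heads examined (6.52%), the highest or lowest head stood apart from the others by a test of gaps that flags about 1 in 20 groups by chance. Starved replicate 2 stood apart in this way, below its group, in 3 members: sNPF at 38.2 RPKM (others 44.8 to 46.5 RPKM), Dh31 at 30.7 RPKM (others 36.6 to 37.6 RPKM) and the tachykinin receptor gene TkR86C at 1.52 RPKM (others 1.96 to 2.14 RPKM). Starved replicate 3, the starved head lowest in apolpp, stood apart in 3 members. AkhR was lowest there at 0.513 RPKM (others 13.1 to 20.6 RPKM), while CCHa1 at 8.16 RPKM (others 5.47 to 5.92 RPKM) and Dh31-R at 11.6 RPKM (others 9.89 to 10.2 RPKM) were highest. Lkr, the leucokinin receptor gene, was lowest in starved replicate 4 at 1.98 RPKM (others 2.31 to 2.42 RPKM).

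At 1 hour Nplp4 was lowest in replicate 3 at 1.69 RPKM (others 2.90 to 3.75 RPKM) and Ms was lowest in replicate 5 at 78.4 RPKM (others 86.5 to 91.1 RPKM). At 4 hours replicate 6 was lowest in SIFa, the gene of the neuropeptide SIFamide, at 9.37 RPKM (others 12.6 to 13.6 RPKM), and highest in Dh44-R1 at 7.74 RPKM (others 6.52 to 6.84 RPKM). TkR99D was lowest in 4-hour replicate 4 at 4.86 RPKM (others 5.74 to 5.79 RPKM).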

How the results depend on the processing

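Of 46 named differences, 40 kept their direction under every setting that was run, and the other 6 were under 0.1 (log2) and not called. With the same neuron marker sum AstC-R1, AstC-R2 and CCHa1-R (starved against fed) were -0.0931, -0.0142 and -0.0298, and NPFR (4 hours against fed) was -0.0204. CCKLR-17D3 (4 hours against starved) was 0.0234 with the same 75th percentile, 0.0134 with the same total RPKM, 0.0207 with the same neuron marker sum and 0.0251 without both heads lowest in apolpp. Over the fits without 1 head AstC-R1 ran from -0.0071 to 0.0698, CCKLR-17D3 from -0.0529 to 0.0335 and TkR86C (4 hours against starved) from -0.0155 to 0.0631. Scaling to the same total RPKM moved the median of all genes by 0.28 (starved), 0.25 (1 hour) and 0.30 (4 hours) against fed heads, and calls are relative to that shift. In that setting the receptor calls were 0 for 1 hour against starved heads, beside 0.409% of all genes. Against fed heads the neuropeptide and receptor calls were 2 and 1 for starved, 5 and 7 for 1 hour and 16 and 9 for 4 hours. The shares of all genes called there were 8.14%, 20.6% and 31.2%. All genes called were then higher in 778 of 855, 2057 of 2162 and 3148 of 3277 cases, against 59 of 159, 539 of 943 and 179 of 357 as deposited. The same 75th percentile gave 1 neuropeptide call at 1 hour and 1 at 4 hours against fed heads (7.17% and 3.08% of all genes). Against starved heads it gave 0 and 1 receptor calls at 1 and 4 hours (0.619% and 6.83% of all genes). With only the 2 groups in the fit, neuropeptide calls against fed heads were 0 for starved, 0 for 1 hour and 1 for 4 hours. The receptor calls were 0 in the 3 comparisons that had 1. The shares of all genes against fed heads were then 0.133% for starved, 1.25% for 1 hour and 4.86% for 4 hours. For 1 hour against starved heads the share was 0.0286%. Without a filter, with voom weights, with the same neuron marker sum and without both heads lowest in apolpp, the receptor call at 1 hour against starved heads was lost, leaving 0. The shares of all genes called there were 0.198%, 0.476%, 0.390% and 0.581%. Voom gave 1 neuropeptide call at 4 hours against fed heads, beside 3.16% of all genes. The neuron marker sum gave 0 neuropeptide calls for starved and 1 for 1 hour against fed heads, beside 0.619% and 2.73% of all genes. Leaving out both apolpp-low heads gave 2 neuropeptide and 2 receptor calls at 4 hours against fed heads, where 6.04% of all genes were called.

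Replicate numbers did not pair the heads: the mean correlation of deviations was -0.032 over 27 same-numbered pairs, 8 of them over 0.1, and 0.0086 over 138 other pairs. With the replicate block the calls were 0 neuropeptide genes for starved against fed heads, 0 receptor genes for 1 hour against starved and 0 receptor genes for 4 hours against fed heads.

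Leaving out each head in turn gave 0 to 2 neuropeptide and 0 to 1 receptor calls for starved against fed heads. Against starved heads it gave 0 to 1 receptor calls for 1 hour and 0 to 2 neuropeptide calls for 4 hours. Against fed heads it gave 0 to 5 of each class for 1 hour. For 4 hours against fed heads it gave 0 to 2 neuropeptide and 0 to 1 receptor calls. In the same order, the shares of all genes ran from 0.267% to 7.47%, 0.286% to 1.32%, 2.76% to 7.65%, 2.65% to 15.8% and 0.571% to 4.51%. The highest counts at 1 hour, 5 neuropeptide and 5 receptor genes, came without fed replicate 1, where 15.8% of all genes were called. The cause of these changes was not tested. Depth was not equal between genes: Akh, RYa and AstA-R2 rested on few reads. Lk, CCAP, ITP, SIFa, amn, Lgr3 and Dh44-R2 share exonic bases with other genes.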

Other observations

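Eh, the gene of eclosion hormone, a peptide of a few brain neurons known for triggering ecdysis, was noticed among the peptide genes outside the member list after its values were seen. It was at 9.46 RPKM with 232 reads in fed replicate 6 and at or below 0.245 RPKM, with at most 7 reads, in each of the other heads. It did not reach the filter and was not tested. In the same head NPF was at 21.3 RPKM and Crz at 23.7 RPKM, both within the range of the other fed heads.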
